A study of Homo sapiens with 4 samples.

Results

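A cassette exon is an exon that the spliceosome can either keep or leave out. Keeping it takes 2 inclusion junctions, 1 on each side of the exon, and leaving it out takes a single skipping junction that joins the neighbouring exons directly. SF3B1 is the U2 snRNP protein that grips the intron around the branch point before the 3′ splice site is chosen, and the K700E substitution, recurrent in myelodysplastic syndromes, is known mainly for moving 3′ splice site choice to cryptic sites upstream of the annotated one. Exon skipping is a separate outcome of the same machinery, which the present junction counts measure on RNA that was still on chromatin.

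The members were triplets of annotated introns of one gene, a long intron and 2 shorter ones that share its ends and flank 1 annotated exon, with at least 20 junction reads in all 4 libraries together and at least 1 on the long intron. This gave 3556 triplets in 1725 genes, of 25313 such triplets with any row in the tables. The members were chosen by their summed junction counts, so the existence of skipping reads is no result; the difference between genotypes was not used. The skipping share is the skipping junction reads as a percentage of skipping plus the mean of the 2 inclusion junction reads. Just inside the limit, with 20 reads each and all of them skipping reads, were an exon of AGK, a mitochondrial lipid kinase, and one of AHSA2P; just outside it, with 19 reads, again all skipping, was an exon of ABCC4, an efflux transporter.

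The cells were K562, a line from chronic myeloid leukaemia, in 2 groups of 2 libraries: SF3B1 K700E cells and SF3B1 wild-type (WT) cells, both harvested 4 days after doxycycline at 1 µg/ml was added to induce the modified allele. Per the labels, chromatin was isolated with α-amanitin present, its RNA was cleared of polyadenylated and ribosomal RNA, and PCR-amplified cDNA was sequenced as long reads. The labels do not say whether replicates were separate cultures or clones, so the spread between them may be technical, and the tables do not show which SF3B1 allele a library carried. The K700E libraries held 195852 and 443858 junction reads over all placed introns, and the WT libraries 734607 and 568670.

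The labels also call the cells epithelial. Of 11 erythroid and leukaemia markers, 8 and 8 had reads over their introns in the K700E libraries and 7 and 9 in the WT libraries, with summed reads of 1283 and 2531 in K700E and 3684 and 5199 in WT. TFRC and BCR held most of these, and KLF1 and GATA2 were at 0 in every library. Of 8 epithelial markers, 3 and 5 had reads in the K700E libraries and 3 and 5 in the WT libraries, with sums of 24 and 81 in K700E and 95 and 64 in WT. KRT5 and CLDN4 were at 0 in every library.

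The following 7 cassette exons are shown because both of their forms are annotated as coding and the results below turn on them. They include the shortest exons with enough reads, the best covered exons of mixed use, and those with the widest gaps between genotypes. The cassette exon is in capitals, and the lower-case letters are the coding bases of the exons on either side, at most 15 each, which the skipping junction joins directly. All are written 5′ to 3′ on the gene's strand, from the GENCODE 29 transcripts on GRCh38.
HNRNPA2B1, 36 nt: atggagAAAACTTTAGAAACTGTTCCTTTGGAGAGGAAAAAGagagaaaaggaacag
GPBP1, 21 nt: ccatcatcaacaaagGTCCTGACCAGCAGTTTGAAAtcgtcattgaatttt
MYH10, 27 nt: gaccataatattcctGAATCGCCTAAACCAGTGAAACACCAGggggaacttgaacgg
VPS41, 39 nt: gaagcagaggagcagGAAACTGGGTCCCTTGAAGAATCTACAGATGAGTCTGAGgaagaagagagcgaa
IARS, 49 nt: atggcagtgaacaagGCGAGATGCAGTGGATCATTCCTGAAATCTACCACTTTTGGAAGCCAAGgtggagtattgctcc
MACF1, 63 nt: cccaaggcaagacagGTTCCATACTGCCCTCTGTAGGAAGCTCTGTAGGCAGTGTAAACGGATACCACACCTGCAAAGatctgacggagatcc
BIRC6, 90 nt: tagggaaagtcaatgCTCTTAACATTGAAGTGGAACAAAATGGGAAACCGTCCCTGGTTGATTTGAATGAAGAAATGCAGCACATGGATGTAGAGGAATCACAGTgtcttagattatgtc
All but the IARS exon have a length divisible by 3, so that leaving them out keeps the reading frame. The exons lie at chr7:26197831-26197866 (minus strand, HNRNPA2B1 exon 2), chr5:57221376-57221396 (plus, GPBP1 exon 2), chr17:8576643-8576669 (minus, MYH10 exon 6), chr7:38898091-38898129 (minus, VPS41 exon 2), chr9:92240643-92240691 (minus, IARS exon 5), chr1:39378461-39378523 (plus, MACF1 exon 17) and chr2:32435496-32435585 (plus, BIRC6 exon 14), each numbered in the transcript named in the annotation for it.

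Most of the 3556 triplets were thinly read. The median number of junction reads over the 4 libraries was 41 and the largest was 1450. No inclusion read was seen for 704 triplets (19.8%), and 666 (18.7%) had 1 skipping read in all. The exons had a median length of 107 nt, and 1382 (38.9%) had a length divisible by 3. Coding sequence covered the whole exon in 1747, part of it in 745 and none of it in 1064. Of 91 triplets with an exon of 27 nt or less, 51 (56.0%) had no inclusion read, against 653 (18.8%) of the longer ones. Whether the alignment can place such short exons was not tested. After triplets that the counts could not tell apart were joined, 3470 remained, of which 244 (7.03%) in 155 genes had at least 10 reads in every library. These 244 are described below as the measured cassettes, and the 197 of them with both forms seen were tested between genotypes. The read limit favours well-read genes and the need for both forms favours mixed use, so neither set stands for all members.

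Cassette exons in chromatin-bound RNA were mostly either kept or left out, with few in between. Of the 244 measured cassettes, 88 had a mean skipping share under 20%, 27 lay between 20 and 80%, and 129 were above 80%. Within these, 63 were under 5%, 60 lay between 95 and 100%, and 47 had no inclusion read in any library. The rule asked for a skipping read but no inclusion read, so full skipping in every library was possible and full inclusion was not. This shapes the numbers at both ends, and the means here and by class below. The mean share over cassettes was 57.8 and 58.0% in the K700E libraries, against 58.8 and 58.1% in the WT libraries.

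**Figure D1:**
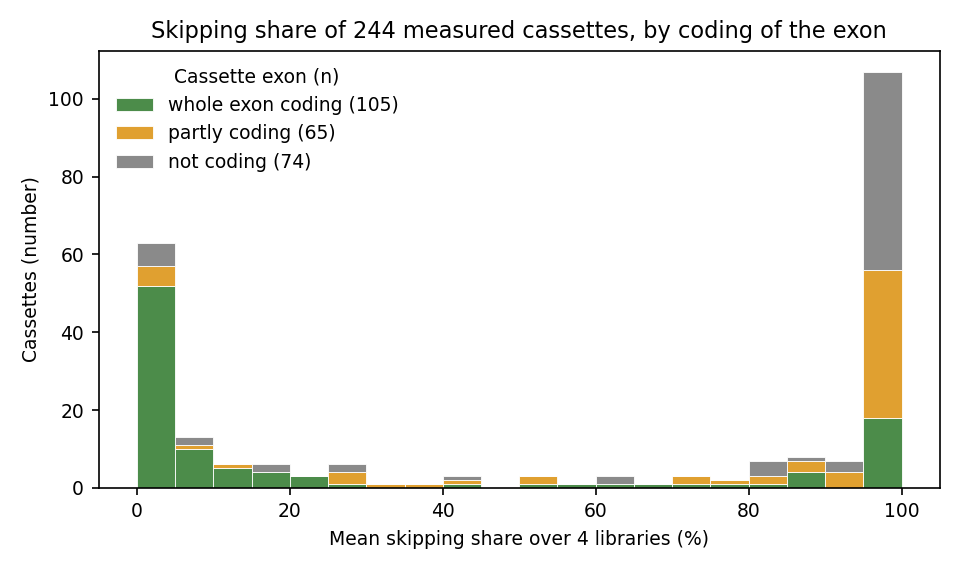
Number of cassettes (vertical axis) by mean skipping share over 4 libraries in percent (horizontal axis, 5-point bins), with colours for exons that are wholly coding (105), partly coding (65) or not coding (74). The counts pile up at both ends, with the wholly coding exons mostly at the low end and the other exons mostly at the high end.

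The 105 wholly coding exons were mostly kept, and the others mostly left out. The mean skipping share of the wholly coding exons was 28.0 and 28.8% in the K700E libraries, against 30.6 and 28.5% in the WT libraries. It was 79.3 and 78.1% in K700E and 78.0 and 79.7% in WT for the 65 partly coding exons. For the 74 non-coding exons it was 81.2 and 81.8% in K700E and 82.0 and 81.1% in WT. Of the 88 cassettes under 20%, 71 were wholly coding, and of the 129 above 80%, 23 were. These are differences between kinds of exon within the same libraries, and cassettes are not replicates, so no test was made.

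A length divisible by 3 went with more skipping in the wholly coding exons, and in the non-coding ones too. The 49 with a length divisible by 3 had mean skipping shares of 40.6 and 41.7% in the K700E libraries, against 43.9 and 41.3% in the WT libraries. The 56 whose length is not divisible by 3 had 17.0 and 17.5% in K700E and 18.9 and 17.3% in WT. Non-coding here means that no coding sequence is annotated over the exon. It does not mean that the exon lies outside the reading frame of its gene. The 21 non-coding exons divisible by 3 had 93.8 and 93.5% in K700E and 92.3 and 93.1% in WT. The other 53 non-coding exons had 76.2 and 77.2% in K700E and 77.9 and 76.4% in WT. Over all 244 cassettes, coding or not, the exons divisible by 3 exceeded the rest by 5.66 and 5.85 percentage points in K700E and by 6.02 and 5.89 in WT. The order was the other way round in the partly coding exons: the 26 divisible by 3 had 73.9 and 73.2% in K700E and 73.2 and 74.6% in WT, and the other 39 had 82.9 and 81.4% in K700E and 81.1 and 83.1% in WT. The excess over all cassettes was 1.83 with at least 5 reads in every library and 26.7 with at least 20.

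The annotated fate of each form gave the widest contrast. Nonsense-mediated decay (NMD) is the cytoplasmic pathway that removes transcripts with a premature stop codon, and exons whose inclusion brings such a stop are called poison exons. In 56 cassettes GENCODE places inclusion in NMD transcripts and skipping in protein-coding ones, and their mean skipping share was 91.0 and 91.0% in the K700E libraries, against 90.7 and 91.4% in the WT libraries. In 25 cassettes, wholly coding and none divisible by 3, it places skipping in NMD transcripts and inclusion in protein-coding ones. Their mean skipping share was 3.24 and 5.16% in K700E and 7.54 and 4.30% in WT. Where both forms are in protein-coding transcripts (98 cassettes), it was 54.0 and 54.7% in K700E and 55.0 and 53.8% in WT. The classes were not tested against each other.

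**Figure D2:**
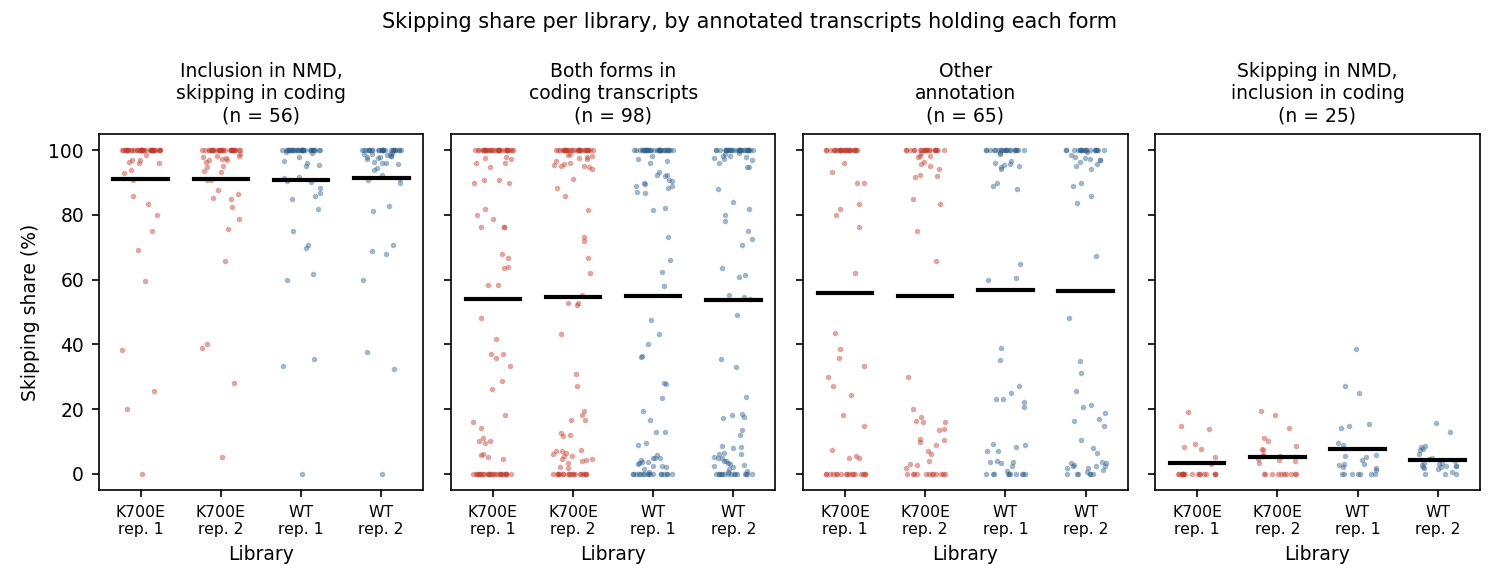
Skipping share in percent (vertical axis) of each measured cassette in each library (horizontal axis), K700E in red and WT in blue, in 4 panels by the annotated transcripts that hold each form; black bars are means over cassettes. Most of the 56 cassettes with inclusion in NMD transcripts sit near 100% and a few far below it, with means of 91.0 and 91.0% in K700E and 90.7 and 91.4% in WT, while most of the 25 with skipping in NMD transcripts sit near 0.

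The 4 cassettes with the most total junction reads in each of these NMD classes were picked after their values were seen. All 4 whose skipping is annotated as NMD were near full inclusion, while the 4 whose inclusion is annotated as NMD were of every use: 1 was mostly skipped (ADGRV1), 1 mostly kept (ARPC4-TTLL3) and 2 of mixed use (POTEE and VWDE, given further on). ADGRV1, a very large adhesion receptor, held 1 of each. Its 95-nt exon (chromosome 5, 90672803 to 90672897), whose inclusion is annotated as NMD, had skipping shares of 98.5 and 96.9% in the K700E libraries, against 96.1 and 98.6% in the WT libraries. Its 610-nt exon 28 (chromosome 5, 90683586 to 90684195), whose skipping is annotated as NMD, had shares of 3.03 and 0% in K700E and 0 and 0.637% in WT. The groups overlapped at both.

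BIRC6, a giant ubiquitin ligase that blocks apoptosis, skipped its 134-nt exon 17 (chromosome 2, 32441329 to 32441462) in 5.26 and 0% in K700E libraries and 1.28 and 2.31% in WT libraries. COPA, a subunit of the coatomer coat of Golgi vesicles, skipped its 136-nt exon 9 (chromosome 1, 160313990 to 160314125) in 0 and 0% in K700E and 0 and 1.61% in WT. The 155-nt exon of MACF1, which links actin filaments to microtubules (chromosome 1, 39302924 to 39303078), was skipped in 0 and 4.00% in K700E and 1.67 and 0% in WT. All 3 were near full inclusion in every library. An exon whose inclusion is annotated as NMD was also kept, but its reads may be those of another gene. This was a 96-nt exon of the readthrough gene ARPC4-TTLL3 (chromosome 3, 9801661 to 9801756). Its skipping share was 0 and 5.26% in K700E and 0 and 0% in WT. Its downstream junction, with 12 and 17 reads in K700E and 38 and 136 in WT, is also annotated in protein-coding transcripts of ARPC4. The exon therefore does not serve as an example of a poison exon that was kept.

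Very short exons had few inclusion reads. The 7 measured cassettes of 27 nt or less had mean skipping shares of 97.4 and 99.5% in the K700E libraries, against 97.1 and 96.7% in the WT libraries, and 4 of them had no inclusion read. They include a 3-nt exon of NOTCH2 and a 6-nt exon of MACF1, both without an inclusion read. Whether the alignment can place exons this short was not tested, so a missing inclusion read may not mean skipping. MRPL42, a mitochondrial ribosomal protein gene, has a 20-nt exon (chromosome 12, 93470486 to 93470505) that was skipped in 100 and 96.3% in K700E and 100 and 97.1% in WT. The 27-nt exon of MYH10, the gene of non-muscle myosin heavy chain IIB, was skipped in 90.9 and 100% in K700E and 93.3 and 100% in WT. For sequence, the 129 cassettes above 80% had a median GC content of 47.6%, against 43.0% for the 88 under 20%, with interquartile ranges of 40.3 to 53.6% and 39.1 to 48.4%. The exon ended in the letters AG in 76 (58.9%) of the 129 and in 51 (58.0%) of the 88.

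No cassette differed between K700E and WT cells by the test. In edgeR's quasi-likelihood test on skipping against inclusion reads, 0 of 197 cassettes passed an adjusted p of 0.05 (Benjamini-Hochberg), with 1 at an unadjusted p under 0.05 and a smallest adjusted p of 0.897. That 1 is 0.508% of those tested, below the share of 0.05 that a test gives when nothing differs. The fit was therefore conservative, and the 0 does not show that the genotypes were alike. Without WT replicate 2 the count was 1. DESeq2 also called 0, with 1 at an unadjusted p under 0.05; limma on log2 odds called 0, with 10; and pooling the reads for Fisher's exact test gave 0, with 6. There were 2 libraries a group, and the median number of reads per cassette was between 13 and 38.5 in a library.

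The values of single cassettes varied as much within as between genotypes. The median absolute difference between libraries was 3.03 percentage points between the K700E pair and 3.13 between the WT pair, and 2.86 to 4.04 between a K700E and a WT library. The skipping share was lower in K700E on average at 101 cassettes, higher at 95 and equal at 1, with a median difference of -0.146 percentage points, and 139 (70.6%) differed by no more than 5 points. The groups did not overlap at 47 of 197 cassettes (23.9%). Both K700E libraries were below both WT libraries at 27 (13.7%) and above them at 20 (10.2%).

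**Figure D3:**
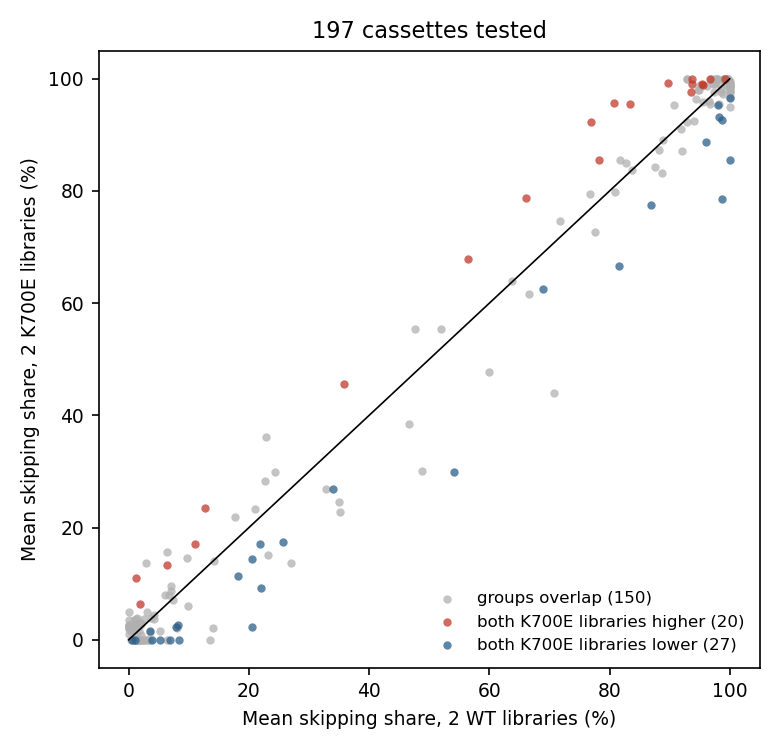
Mean skipping share in percent of the 2 K700E libraries (vertical axis) against that of the 2 WT libraries (horizontal axis) for the 197 tested cassettes, with the line of equality. Cassettes whose 2 K700E libraries both lay above (20) or below (27) both WT libraries are coloured, and the points lie along the line with the densest groups at its ends.

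Over all measured cassettes the summaries did not move together. The mean skipping share was 57.9% ± 0.144 in K700E and 58.5% ± 0.495 in WT (SD, n = 2 each), a difference of -0.552 percentage points (exact permutation test over libraries, two-sided, p = 0.333, the smallest this design allows). Leaving out WT replicate 1 gave -0.202 percentage points, and leaving out WT replicate 2 gave -0.902. The median share was 80.9 and 86.0% in K700E and 87.6 and 83.9% in WT, and the groups overlapped (exact permutation p = 0.667). With reads pooled over cassettes, the share was 56.8 and 56.7% in K700E, against 51.8 and 55.8% in WT, a difference of 2.97 percentage points in the other direction (exact permutation p = 0.333). WT replicate 1 was the farthest from the rest in this measure, and without it the pooled difference was 0.974 percentage points.

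The 5 largest differences upward among cassettes whose groups did not overlap were in genes of unrelated roles. MPHOSPH9, a centriole-associated protein gene, has a 64-nt exon (chromosome 12, 123226288 to 123226351) whose inclusion is annotated as NMD. It was skipped in 93.8 and 90.9% in the K700E libraries, against 85 and 68.9% in the WT libraries. The K700E mean was 15.4 percentage points higher, with WT replicate 2 the lowest of the 4 (log2 odds ratio 1.83 ± 1.17, SE; edgeR adjusted p = 0.897). Without WT replicate 2 the difference was 7.33, and without WT replicate 1 it was 23.5.

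IARS, the cytosolic isoleucyl-tRNA synthetase gene, skipped its 49-nt exon in 97.1 and 94.1% in K700E and 88.9 and 72.5% in WT. INTS4, a subunit of the Integrator complex that cleaves nascent snRNAs, skipped a 170-nt exon (chromosome 11, 77987529 to 77987698) in 75 and 82.4% in K700E and 61.8 and 70.6% in WT. The 21-nt exon of GPBP1, a GC-rich promoter-binding protein gene, was skipped in 90.9 and 100% in K700E and 86.7 and 80% in WT. A non-coding exon of AZIN1, the antizyme inhibitor of the polyamine pathway (chromosome 8, 102849999 to 102850144), was skipped in 63.6 and 72.0% in K700E and 58.1 and 54.8% in WT. Differences at these 4 were between 11.4 and 14.9 percentage points, and the adjusted p was 0.897 for each. With 1 library left out in turn, they ranged between 6.74 (without WT replicate 2) and 23.1 (without WT replicate 1) at IARS and between 8.09 (without WT replicate 1) and 16.9 at INTS4. They ranged between 7.58 and 16.7 at GPBP1 and between 7.22 and 15.6 at AZIN1, lowest without K700E replicate 2 at both.

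The largest differences downward included exons with very few reads of one form, and 4 of the 5 largest without overlap are given here. STAG3L3, a pseudogene related to the cohesin gene STAG3, skipped a 124-nt exon (chromosome 7, 73000358 to 73000481) in 30 and 29.8% in the K700E libraries, against 60 and 48.3% in the WT libraries. The difference was -24.2 percentage points, but it rested on 6 and 7 skipping reads in K700E and 6 and 7 in WT, and reads of its near copies cannot be told apart from its own.

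VPS41, a subunit of the HOPS complex that tethers vesicles to lysosomes, skipped its 39-nt exon in 0 and 4.65% in K700E and 36.4 and 4.72% in WT. The WT value of 36.4% came from 4 skipping reads, with a 95% Wilson interval of 15.2 to 64.6% for counting error, and the other 3 libraries lay below 5%. Without WT replicate 1 the difference was -2.40 percentage points, in place of -18.2. ACACA, the rate-limiting enzyme of fatty acid synthesis, skipped a 111-nt exon (chromosome 17, 37289418 to 37289528) in 66.7 and 66.7% in K700E and 88.2 and 75% in WT. LARP4, which binds poly(A) tails, skipped a 139-nt exon (chromosome 12, 50402675 to 50402813) in 76.2 and 95% in K700E and 100 and 100% in WT. The difference was -15.0 percentage points at ACACA, and -8.33 without WT replicate 1. It was -14.4 at LARP4, -5.00 without K700E replicate 1 and -23.8 without K700E replicate 2. The adjusted p was 0.897 for each of the 4. At LARP4 the same skipping reads also span a 49-nt exon (chromosome 12, 50412405 to 50412453). That exon was skipped in 76.2 and 95% in K700E and 100 and 63.6% in WT. Its K700E mean was 3.78 percentage points higher, so the direction at LARP4 depended on the exon.

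**Figure D4:**
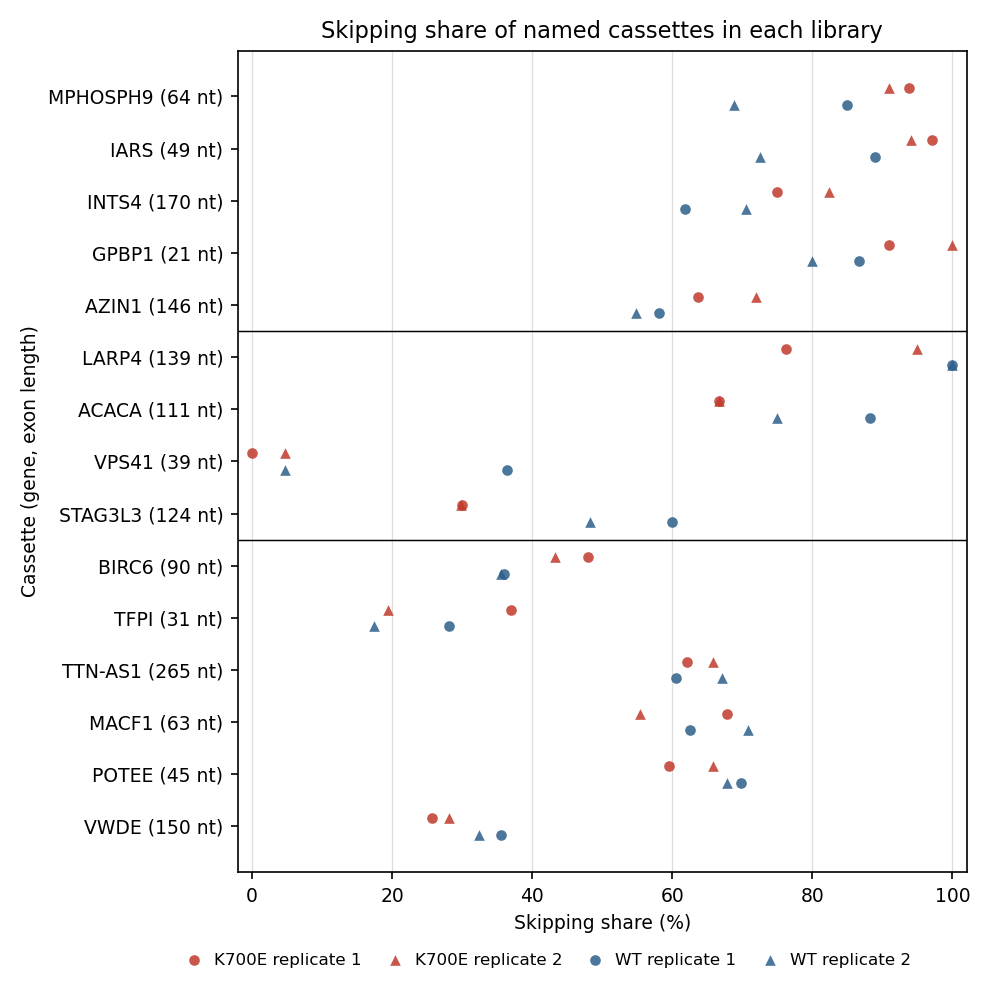
Skipping share in percent (horizontal axis) of named cassettes (vertical axis, gene and exon length in nt) in each library, K700E in red above WT in blue, circles for replicate 1 and triangles for replicate 2. Lines separate the 5 largest differences upward without overlap, 4 of the 5 largest downward, and the 6 best-read cassettes of mixed use; the VPS41 exon lies at 36.4% in WT replicate 1 and below 5% in the other 3 libraries.

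Of the 6 best-read cassettes of mixed use, none passed the test. POTEE, a primate-specific member of the POTE ankyrin family, skipped a 45-nt exon (chromosome 2, 131238194 to 131238238), whose inclusion is annotated as NMD, in 59.5 and 65.8% in the K700E libraries, against 69.8 and 67.9% in the WT libraries. POTE genes are near copies, so these reads may be shared among them, and by its upstream junction alone the K700E mean was 2.71 percentage points higher. BIRC6 skipped its 90-nt exon 14 in 48.0 and 43.3% in K700E and 36.0 and 35.5% in WT. Both K700E libraries were higher, by 9.87 percentage points on average, with a log2 odds ratio of 0.54 ± 0.58 (SE) and an adjusted p of 0.897 in edgeR's test.

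VWDE, a von Willebrand factor domain protein gene, skipped a 150-nt exon (chromosome 7, 12388808 to 12388957) in 25.7 and 28.1% in K700E and 35.6 and 32.4% in WT. This exon was kept in most reads although its inclusion is annotated as NMD. MACF1 skipped its 63-nt exon 17 in 67.9 and 55.3% in K700E and 62.5 and 70.8% in WT, and the groups overlapped. TTN-AS1, a noncoding RNA antisense to the titin gene, skipped a 265-nt exon (chromosome 2, 178531314 to 178531578) in 62.1 and 65.8% in K700E and 60.5 and 67.2% in WT, values that also overlapped. The sources used here do not say whether counting used strand, so its reads and those of TTN cannot be told apart with certainty.

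At the other end, the 5 highest shares among tested cassettes were in CLTC, SND1, CAPZA1, TTN-AS1 and GALK2, with a single inclusion junction read each over all 4 libraries. CLTC, the clathrin heavy chain gene, had 13 and 43 skipping reads in the K700E libraries, against 109 and 55 in the WT libraries, over a 143-nt exon (chromosome 17, 59658662 to 59658804) whose inclusion is annotated as NMD. At this level the test compares a count of 1 with 0.

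In genes of splicing factors and RNA-binding proteins, 11 cassettes were tested, of which 6 had a mean skipping share over 80%, 4 under 20% and 1 in between. The 3 genes with the most skipping reads, which the naming rule takes, were all of the first kind. HNRNPA2B1 exon 2 is the exon that separates the B1 isoform, which holds it, from the more abundant A2. It had 13 and 51 skipping reads in the K700E libraries, against 11 and 84 in the WT libraries. The skipping share was 78.8 and 91.1% in K700E and 81.5 and 84.0% in WT, so the groups overlapped. The poison exon of SRSF3, an SR protein that regulates its own splicing (chromosome 6, 36598429 to 36598526), was skipped in 100 and 100% in K700E and 100 and 96.0% in WT. A 96-nt exon of SRPK1, the kinase of SR proteins (chromosome 6, 35904879 to 35904974), was skipped in 100 and 100% in K700E and 85.7 and 100% in WT. The cassette of the list with the most total junction reads, named after its values were seen, was of the other kind: a 963-nt exon of MBNL1, a muscleblind splicing regulator (chromosome 3, 152299405 to 152300367), skipped in 0 and 4.04% in K700E and 2.33 and 13.6% in WT. Of 131 genes in this list, 54 had a member cassette, and those tested were in 10 genes. None passed, 1 was lower and 0 were higher without overlap, against 13.7% lower and 10.2% higher over all tested cassettes, and the median difference was -0.943 percentage points, against -0.146 over all 197.

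None of the tested cassettes of the other lists passed. Among genes of replication, DNA damage and mitosis, 8 cassettes of 6 genes were tested, 0 were without overlap, and the median difference was 0.345 percentage points. NUMA1, which organises spindle poles, skipped a 121-nt non-coding exon (chromosome 11, 72049419 to 72049539) in 90.0 and 94.7% in K700E and 90.9 and 94.9% in WT. CDC45, part of the replicative helicase, skipped a 129-nt exon (chromosome 22, 19494474 to 19494602) in 80 and 86.4% in K700E and 81.8 and 95.7% in WT. NCAPG2, a condensin II subunit, mostly kept its 174-nt exon 16 (chromosome 7, 158662194 to 158662367), skipping it in 5.41 and 8.96% in K700E and 8.16 and 6.50% in WT.

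Among erythroid, haem and iron genes, 3 cassettes of 2 genes were tested, 0 were without overlap, and there was a median difference of -1.18 percentage points. EPB41, the red cell membrane protein 4.1, skipped a 126-nt exon (chromosome 1, 29031788 to 29031913) in 100 and 94.7% in K700E and 100 and 97.8% in WT. TFRC, the transferrin receptor, kept its 202-nt exon 3 (chromosome 3, 196075159 to 196075360), skipping it in 0 and 1.82% in K700E and 3.54 and 0.635% in WT. Among genes with known cassette exons, 12 cassettes of 8 genes were tested, with 0 lower and 1 higher without overlap, against 13.7% and 10.2% over all 197, and a median difference of -0.176 percentage points. PKM, the pyruvate kinase gene, is known for its mutually exclusive M1 and M2 exons, but the cassette measured here was another, a 117-nt exon near its start (chromosome 15, 72221168 to 72221284), skipped in 100 and 98.7% in K700E and 100 and 98.3% in WT. Of 45 genes reported as mis-spliced in SF3B1-mutant cells, 9 had a member cassette and none had 10 reads in every library. The same held for the 129 chromatin and transcription genes, of which 38 had a member cassette.

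Most reads over the flanking introns carried one junction or the other, but the cassettes were kept for having at least 10 junction reads in every library. Introns with few spliced reads could hardly enter, so the high level is no result. Pooled over the 244 measured cassettes, the upstream intron was removed by the inclusion junction in 36.7 and 37.4% of the reads over it in the K700E libraries, against 41.5 and 38.7% in the WT libraries. The skipping junction took another 47.3 and 47.8% in K700E and 45.6 and 47.0% in WT. Either junction was present in 83.9 and 85.1% of reads in K700E and 87.0 and 85.8% in WT over the upstream intron. Over the downstream intron it was present in 86.1 and 86.6% in K700E and 87.2 and 86.2% in WT. The groups overlapped downstream. Upstream both K700E libraries were lower, the nearer of them by less than the gap between the WT pair.

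**Figure D5:**
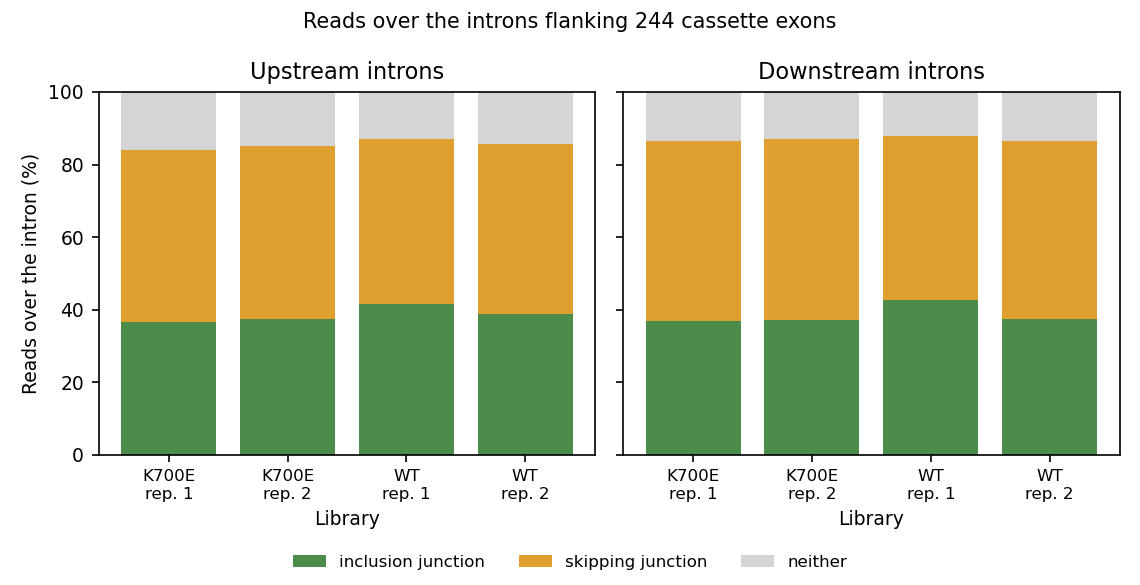
Reads over the upstream and downstream introns of 244 measured cassette exons (panels) as a percentage of all reads over them (vertical axis, from 0), split into those with the inclusion junction, the skipping junction or neither, in each library (horizontal axis). The inclusion junction took 36.7 and 37.4% of upstream intron reads in K700E and 41.5 and 38.7% in WT, and neither junction a small share everywhere.

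Counted by its own junction alone, an inclusion intron had a low splicing efficiency. Over 796 inclusion introns of members with at least 10 reads in every library, the mean share of reads with the intron's own junction was 29.9 and 30.6% in K700E and 30.6 and 30.7% in WT, a difference of -0.419 percentage points (exact permutation p = 0.667). Counting skipping reads as spliced gave -1.25, but over a different set, the introns flanking the measured cassettes. That value therefore does not show the effect of the definition alone. For the 796 introns, the difference shrank to -0.0611 once K700E replicate 1 was dropped. Dropping K700E replicate 2 in its place widened it to -0.777. The other 1688 internal introns of the same genes had 75.9 and 78.3% in K700E and 80.8 and 78.4% in WT, a difference of -2.47 percentage points (exact permutation p = 0.333). The K700E libraries were both below both WT libraries at 97 of the 796 inclusion introns (12.2%), against 916 of all 5651 introns (16.2%), and both above at 69 (8.67%), against 423 (7.49%). Both shares of inclusion introns were near those of all introns, which include them. They were less near those of the other 1688 internal introns of the same genes, of which 341 were lower and 108 higher without overlap.

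The 2 inclusion junctions of an exon were read about equally often. Summed over the measured cassettes, the upstream junction made up 51.2 and 51.3% of inclusion junction reads in the K700E libraries, against 48.8 and 52.0% in the WT libraries, and the groups overlapped (exact permutation p = 1). Single exons departed from this. TFPI, which encodes an inhibitor of the tissue factor pathway of coagulation, has a 31-nt non-coding exon (chromosome 2, 187513616 to 187513646) with 0 and 4 upstream junction reads in K700E and 1 and 0 in WT, against 17 and 104 downstream reads in K700E and 45 and 38 in WT. Its skipping share of 37.0 and 19.4% in K700E and 28.1 and 17.4% in WT therefore rested almost wholly on the downstream junction. At ADGRV1 exon 28 the upstream junction had 30 and 24 reads in K700E and 238 and 187 in WT, and the downstream junction 34 and 56 in K700E and 194 and 125 in WT. The upstream junction was the rarer one in both K700E libraries, in replicate 1 by 30 reads against 34, and the commoner one in both WT libraries. The skipping junction had 1 and 0 reads in K700E and 0 and 1 in WT. This exon was named after its values were seen, and the difference was not tested.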

How the data were processed

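For each of the 4 samples the authors deposited a table of annotated introns with 2 raw counts, of reads overlapping each intron and of those carrying its junction, and their ratio (CoSE), which was not used here except as a check; a second table, of RNA 3′ end positions, was not used here. Tools named in the submitters' processing notes are minimap2 and cutadapt, with the hg38 build; the sources used here give no versions and no rule for assigning reads. PCR reads carry no molecular identifiers, so intervals (95% Wilson) cover counting error only.

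Rows were placed on GENCODE 29 by transcript identifier with its version, which placed 73.0 to 73.4% of rows per library. Ignoring the version placed more rows but gave some introns a wrong end: of 2202 triplets with at least 10 skipping reads, 32 then had a skipping count equal to an inclusion count in all 4 libraries, against 0 of 1994 with the version. Intron pairs sharing a start had identical junction counts in 99.4% of cases when their ends lay 1 to 7 nt apart. The share was 36.6% at 8 to 11 nt and 0% at 12 to 30 nt. Triplets with the same counts in every library and all sites closer than 12 nt were joined. Skipping and mean inclusion counts were tested as paired columns with edgeR 4.0.16 (quasi-likelihood, dispersion 0, Benjamini-Hochberg, threshold 0.05) on cassettes with at least 10 reads in every library and both forms seen. That fit shrinks the spread fully to a common value, so the scatter of a single cassette hardly enters its p. limma 3.58.1, DESeq2 1.42.0, Fisher's exact test, other read minimums, each inclusion junction alone, each library left out and a replicate block were alternatives. The fits were tested on simulated data. Summaries were compared by exact permutation over libraries, two-sided.

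Named were any cassette called, the 5 largest differences each way without overlap, the 5 highest shares, the 6 best read at 20 to 80%, up to 3 per gene list, the 4 shortest exons and those nearest the limit of 20 reads, 1 per gene; others are named as added, and some that the rule names are not reported here. Members and the 6 gene lists were chosen with earlier results of these data known.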

Additional observations from a re-analysis of the deposited data

How the results depend on the processing

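Depth limits these values: only 244 of 3470 cassettes had 10 reads in every library, and many shares rest on 1 to 4 reads of the rarer form. Neither genotype has more than 2 libraries, and WT replicate 1 decides several differences.

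The count of cassettes past the threshold was 0 in edgeR's test in every setting except without WT replicate 2, where it was 1; over the libraries left out it ranged from 0 to 1, and 1 to 7 cassettes had an unadjusted p under 0.05. With at least 5 reads 652 cassettes were tested, with at least 20 reads 25, and the groups did not overlap at 71 and 4 of them downward and at 76 and 3 upward. Numbers in the labels do not pair the libraries (correlation of the deviations of same-numbered libraries -0.135): with the replicate block the count was 0, the smallest adjusted p was 0.897 and the difference in mean share -0.552, and with the numbers crossed the count was 0, with 5 cassettes at an unadjusted p under 0.05.

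The difference in mean share was 0.00581 percentage points with at least 5 reads; that in the median share was 1.15 with at least 20 reads and ranged from -4.82 to 0.314 over the libraries left out. The upstream share of inclusion reads ranged from -0.733 to 2.41. The excess of exons divisible by 3 was 1.83, 26.7 and 5.24 points with at least 5 reads, at least 20 reads and 1 triplet per exon. The pooled difference stayed above 0 in every setting tried and the efficiency difference below 0.

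Among named cassettes, differences in share that changed sign over the libraries left out ranged as follows, in percentage points. TTN-AS1 (265 nt) ranged from -3.23 to 3.47, MACF1 exon 17 from -11.3 to 1.22, TFPI from -3.36 to 14.3, and HNRNPA2B1 from -3.95 to 8.33. NUMA1 ranged from -2.90 to 1.84, CDC45 from -12.5 to 1.36, NCAPG2 from -1.93 to 1.62, and EPB41 from -4.15 to 1.11. TFRC ranged from -2.63 to 0.274, PKM from -0.649 to 1.01, MRPL42 from -2.28 to 1.43, and MYH10 from -5.76 to 3.33. ADGRV1 ranged from -0.318 to 2.71 at exon 28 and from -0.856 to 1.56 at the 95-nt exon, BIRC6 exon 17 from -1.80 to 3.47, and the 155-nt exon of MACF1 from -0.833 to 3.17. By the upstream junction alone the sign turned for POTEE (2.71), TFPI (-6.76), HNRNPA2B1 (-3.09) and MRPL42 (0.926), and by the downstream junction alone for TTN-AS1 (-0.440), NUMA1 (0.395), NCAPG2 (0.156) and PKM (-0.726). Fitted log2 odds ratios turned sign in DESeq2 for CLTC (-0.34), TTN-AS1 (0.0069), TFPI (0.22), TFRC (-0.36), MRPL42 (0.29), COPA (0.39) and the 95-nt exon of ADGRV1 (-0.095), with the replicate block for CLTC (-0.59), SND1 (0.41), TFPI (0.36), NUMA1 (-0.15) and MYH10 (-0.53), and with an estimated dispersion for TFPI (0.074). The cause was not tested in any of these.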

Other observations

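TTN-AS1 held the most measured cassettes of any gene, 11, all non-coding. Their mean skipping share was 61.5 and 62.4% in the K700E libraries, against 61.6 and 62.0% in the WT libraries, with a median of the cassettes' own means of 96.3%. Its 129-nt exon (chromosome 2, 178536334 to 178536462) was skipped in 100 and 100% in K700E and 99.0 and 100% in WT, while its 265-nt exon was of mixed use. The 5 measured cassettes of transcribed pseudogenes, in 4 genes, had mean shares of 66.0 and 65.0% in K700E and 73.4 and 69.1% in WT.

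WT replicate 1 stood above the other 3 libraries at some exons that were otherwise kept. SPAG5, a spindle protein gene, skipped a 94-nt exon in 0 and 0% in K700E and 27.1 and 0% in WT. ATP6V0A1, a subunit of the vacuolar proton pump, skipped a 98-nt exon in 0 and 4.14% in K700E and 25.0 and 3.10% in WT. RPTOR, the scaffold of mTOR complex 1, skipped an 83-nt exon in 9.09 and 18.2% in K700E and 38.5 and 15.7% in WT. These 3 exons were picked after their values were seen, from the 25 whose skipping is annotated as NMD. Their WT replicate 1 values rested on few skipping reads: 8 at SPAG5, 6 at ATP6V0A1 and 5 at RPTOR.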
